A study of Mus musculus with 4 samples.

Results

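Tuft cells are rare chemosensory cells of the gut epithelium, and 9 genes that mark them or carry their signals were followed across 4 microarrays: Rgs13, Ltc4s, Dclk1, Trpm5, Pou2f3, Alox5ap, Hpgds, Gfi1b and Ptgs1. Members were taken by gene symbol. Of the 9, 8 were measured, each by 1 probe set, among 19937 genes in all. Ptgs1, a cyclooxygenase gene, was not analysed here because no probe set carried its symbol in the platform annotation.

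The arrays held RNA of C57BL/6 mice, taken as adults. Their intestine was crosslinked with ultraviolet light, and the tissue is labelled as intestinal epithelium. The 4 groups were starting RNA with no antibody (input), a nonspecific IgG precipitation, a precipitation with an antibody to the RNA-binding protein Musashi1 (Msi1, Millipore AB5977) and one with an antibody labelled hnRNP, a class of nuclear RNA-binding proteins. Each group had 1 array of RNA combined from 2 experiments, so there was no measure of spread and no test was possible; precision is limited by the number of arrays. The study ranked transcripts by their enrichment over IgG. The number of animals and the hnRNP protein targeted are not stated in the labels. No sorting of tuft cells is described either, so a low signal from few tuft cells and a low signal from little RNA per tuft cell cannot be told apart.

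Tuft cells detect luminal compounds through a taste-like cascade that ends in opening of the cation channel Trpm5. They answer with interleukin 25, acetylcholine and eicosanoids, which are lipid mediators made from arachidonic acid. The transcription factor Pou2f3 is required for the lineage. Alox5ap presents arachidonic acid to 5-lipoxygenase, Ltc4s then joins glutathione to the product to give leukotriene C4, and Hpgds makes prostaglandin D2 from the product of cyclooxygenases such as Ptgs1.

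RefSeq promoter windows of GRCm38.p6, which run from 250 bases before a transcript start to 50 after it, were found for 7 of the 9 genes, in 8 windows. In 4 of the 8 that start was the outer end of the annotated gene, and in the others it lay inside the gene. They were searched for letters related to the proteins at issue. The octamer ATGCAAAT, the motif known for POU factors such as Pou2f3, was sought on both strands (its reverse reads ATTTGCAT). It was in 1 of the 8 windows, that of Hpgds, and in 1.74% of all 32851 windows. Shown are 30 bases of that window on the minus strand of chr6:65144886-65144915, with the octamer in capitals. Its first base lies at −174 from the start the window uses. That start is 251 bases inside the annotated gene, so the octamer is itself within the gene, 77 bases from its outer end.

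Hpgds: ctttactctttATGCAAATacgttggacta

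Musashi proteins bind RNA at a short core, UAG, which reads TAG in DNA letters. Of the member windows, 1 of 8 held TAG on the transcribed strand within the first 50 transcribed bases, against 33.7% of all windows. That window was of Ltc4s, with the T at position 42 of the transcript. It is set beside the start of Rgs13, since these were the members furthest below and furthest above IgG in the Msi1 precipitation. The Rgs13 stretch is the minus strand of chr1:144177343-144177372, positions 1 to 30 of the transcript, and the Ltc4s stretch the minus strand of chr11:50238483-50238512, positions 21 to 50, with TAG in capitals.

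Rgs13: ggcattgcaatgccacagcactactttcca
Ltc4s: tctcctgggccagcgtctgagTAGcacact

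These letters are a description of short windows only. The remainder of each transcript, where most Musashi sites are known to lie, was not analysed here.

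All signals below are log2 values as deposited. A detection floor was set for each array from 1208 probe sets of olfactory and vomeronasal receptors, genes taken here as not expressed by most gut epithelial cells, as their 95th percentile. It was 4.09 on input, 5.26 on IgG, 4.74 on Msi1 and 5.17 on hnRNP. Of the 8 measured members, 7 exceeded the floor on input, 2 on IgG, 3 on Msi1 and 4 on hnRNP. Over all genes the shares were 59.1%, 28.1%, 47.8% and 32.9%. The members lay close to background: with the floor at the 99th percentile of the receptors, 3 exceeded it on input, 2 on IgG, 2 on Msi1 and 0 on hnRNP. The epithelial label of the samples was matched by general epithelial markers, 7 of 7 of which exceeded the input floor, among them Epcam (9.60), Vil1 (9.53) and Cdh1 (10.40). In the Msi1 precipitation, 5 of the 7 passed 2-fold over IgG (18.6% of all genes), with a median of 2.00, and 5 of 7 over hnRNP (17.5%). Against input, 7 of 7 were at least 2-fold lower in Msi1 (38.3% of all genes), with a median of −2.12. Fabp2, an enterocyte fatty acid-binding protein gene, exceeded IgG at least 22.9-fold. The deposited Msi1 and IgG values differed by 3.46 log2 units for the keratin gene Krt20 and by 2.96 for Epcam. The keratin gene Krt8 and Cdx2 differed by −0.04 and −0.18, with both arrays above their floors. An excess of 2-fold or more over IgG was thus shared by 5 of these 7 general epithelial transcripts.

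**Figure D1:**
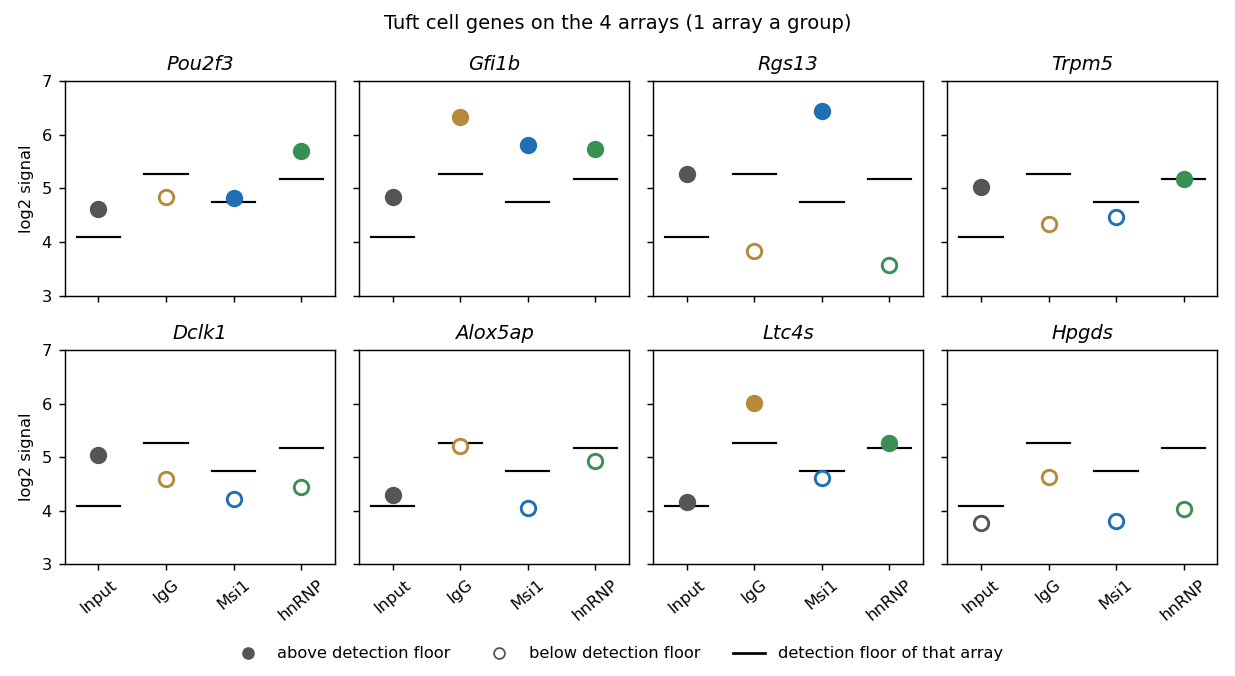
Log2 signal of the 8 measured tuft cell genes (1 panel each) on the input, IgG, Msi1 and hnRNP arrays, 1 array a group; filled points exceed that array's detection floor, drawn as a black line, and open points do not. Rgs13 is highest on Msi1 (6.44) and below the floor on IgG and hnRNP, Ltc4s is highest on IgG (6.01), and Hpgds is below the floor on every array.

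Rgs13 was the only one of the 8 measured members to pass 2-fold upward in Msi1 against IgG. It encodes a regulator of G protein signalling that shortens the active state of G protein alpha subunits. It read 5.28 on input, 3.84 on IgG, 6.44 on Msi1 and 3.58 on hnRNP. The Msi1 array was highest and input second, while IgG and hnRNP lay under their floors and close to the receptor medians of those arrays (3.89 and 3.83).

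Rgs13 exceeded IgG by 2.60 log2 units in the deposited values, or at least 2.26-fold with the IgG value taken as its floor. It exceeded hnRNP by 2.87, at least 2.42-fold, and input by 1.17, which is 2.25-fold with both arrays above their floors. Its Msi1 value thus stood 2-fold or more above each of the other 3 arrays, as did 128 of 13594 genes above the floor on any array (0.942%). Ranked by the smallest of the 3 excesses, Rgs13 was number 91. The excess over input rested on how the arrays were scaled. It was 0.91 with each array centred on its median and 0.55 with each centred on its receptor median, both under 2-fold, and 1.51 and 2.04 with quantile normalization and loess centring. The excess over IgG ranged from 2.60 to 3.04 over the same scalings.

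Ltc4s, the leukotriene C4 synthase gene, went the other way. It read 4.16 on input, 6.01 on IgG, 4.61 on Msi1 and 5.27 on hnRNP. Its input value was just above the floor and its Msi1 value just below it. The Msi1 precipitation was 1.40 log2 units under IgG (−1.40), at least 2.41-fold lower, and 2.08% of the genes compared lay further below. Receptor genes on the same pair ran from −1.41 at their 5th percentile to 0.61 at their 95th. The Ltc4s difference thus lay within that range, near its lower end. The hnRNP precipitation differed from IgG by −0.73. Ltc4s was 3.60-fold higher on IgG than on input (1.85). Among the members this was the largest such excess as deposited, but with quantile normalization and loess centring Gfi1b was higher (2.02 and 2.25, against 2.00 and 1.87). On that pair of arrays the receptor genes had a median difference of 0.96 in the same direction, and with the arrays centred on their receptor medians the Ltc4s difference was 0.88.

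In Msi1 against IgG, 4 of the 8 measured members exceeded the floor of either array or of both. Of these, 1 (Rgs13) was at least 2-fold higher, and 18.6% of all 10368 genes compared were. Likewise 1 (Ltc4s) was at least 2-fold lower, against 6.91% of all genes. The median difference of the 4 was −0.27, against 0.06 over all genes compared and −0.38 over receptor genes. Past 2-fold were 0.838% of receptor genes upward and 16.2% downward, whether or not they passed the floor. The 2 called members each rested on 1 array above its floor and 1 below, and with detection required on both arrays only Gfi1b was left, with 0 members called.

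**Figure D2:**
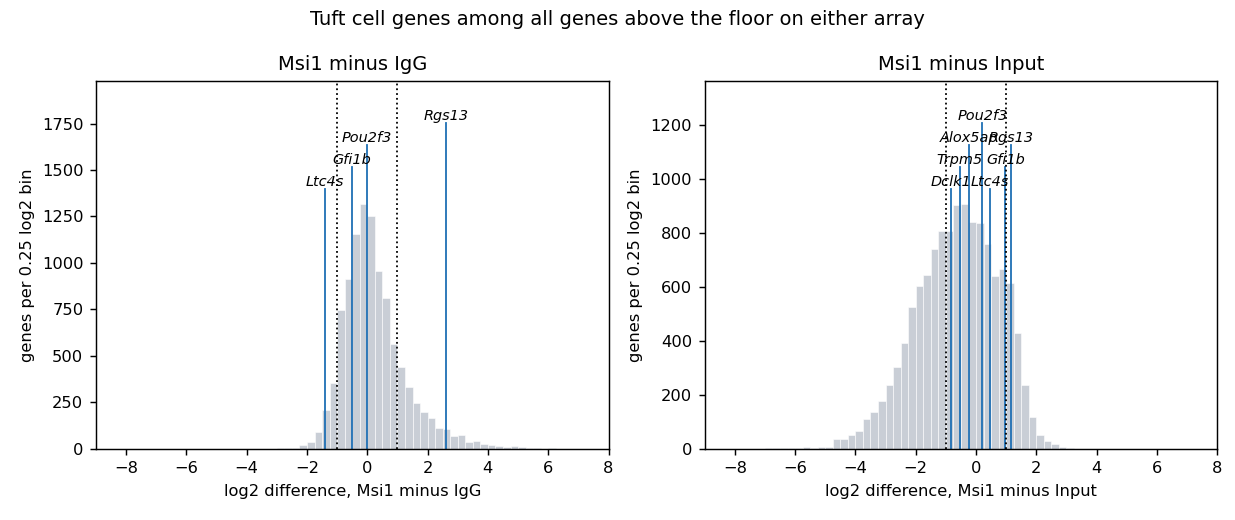
Histograms of the log2 difference for all genes above the floor on either array, Msi1 minus IgG (10368 genes) and Msi1 minus input (12782 genes), with the compared tuft cell genes as blue lines whose heights only separate the names; dotted lines mark 2-fold. Rgs13 at 2.60 and Ltc4s at −1.40 lie outside the dotted lines against IgG, and Rgs13 alone does so against input, at 1.17.

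Neither of the 2 transcription factors passed 2-fold between Msi1 and IgG. Pou2f3 read 4.61 on input, 4.84 on IgG, 4.83 on Msi1 and 5.69 on hnRNP, and hnRNP was the highest array. Its Msi1 and IgG values differed by −0.01, and under the other scalings this difference turned positive, up to 0.33. Its hnRNP value was 2.11-fold above input (1.08) and at least 1.34-fold above IgG. The difference from input was 0.70 with median centring and 0.18 with receptor centring. It stayed past 2-fold with quantile normalization and loess centring, and was at most 1.26 over the scalings. Gfi1b, a repressor also used in blood cell development, was the only member above the floor on all 4 arrays, with 4.84 on input, 6.32 on IgG, 5.80 on Msi1 and 5.73 on hnRNP. All 3 precipitations lay above input, and IgG was highest. Gfi1b was 2.80-fold higher on IgG than on input (1.49), and 1.43-fold lower in Msi1 than in IgG (−0.52). Its excess of IgG over input was 1.10 after median centring, 2.02 after quantile normalization, 2.25 after loess centring and 0.52 after receptor centring.

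Trpm5, the channel of the taste cascade, read 5.02 on input, 4.34 on IgG, 4.47 on Msi1 and 5.17 on hnRNP. Its hnRNP value was at the floor of that array to 2 decimals and above it by less than that, so the count of 4 members on hnRNP includes a borderline case. IgG and Msi1 were below their floors, and no fold between them is given. Dclk1, a microtubule-associated kinase widely used to stain tuft cells, read 5.04 on input, 4.59 on IgG, 4.21 on Msi1 and 4.44 on hnRNP. Only its input value exceeded the floor, and it was at least 1.24-fold lower in Msi1 than on input.

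Alox5ap and Hpgds, the other eicosanoid members, were below the floor in the Msi1 precipitation. Alox5ap read 4.29 on input, 5.21 on IgG, 4.06 on Msi1 and 4.94 on hnRNP. It was above the floor on input alone, and the IgG value missed its floor narrowly. Its deposited values differed by −1.15 between Msi1 and IgG, past 2-fold in size but with both values below the floor, so it was not counted. Hpgds read 3.77, 4.63, 3.81 and 4.03 in the same order and lay below every floor.

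Against input, 7 of the 8 members could be compared with each precipitation, and these comparisons share the input array. In Msi1, 1 member was at least 2-fold higher, Rgs13 (11.8% of all genes), and 0 were lower (38.3%). In hnRNP, 2 were higher, Ltc4s (2.17-fold) and Pou2f3, against 18.7% of all genes, and 1 was lower, Rgs13 (−1.70), against 43.3%. The Ltc4s difference of 1.12 fell under 2-fold with each other scaling, at 0.74 after median centring, 0.95 after quantile normalization, 0.66 after loess centring and 0.21 after receptor centring. On IgG, 2 were higher, Ltc4s and Gfi1b, against 16.6%, and 1 was lower, Rgs13 (−1.44), against 44.7%. The Rgs13 values on hnRNP and IgG were below their floors, which bounds its loss at only at least 1.08-fold and at least 1.01-fold. The member medians were 0.21 in Msi1, 0.65 in hnRNP and 0.22 on IgG, against −0.57, −0.65 and −0.71 over all genes compared. Receptor genes, which lie mostly at background, had medians of 0.56, 0.88 and 0.96. Between the precipitations, 0 of 4 members were 2-fold higher in hnRNP than in IgG (6.26% of all genes) and 0 were lower (4.51%). In Msi1 against hnRNP, 1 of 5 was higher, Rgs13 (17.5%), and 0 were lower (7.79%), with Pou2f3 1.82-fold lower (−0.87).

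**Figure D3:**
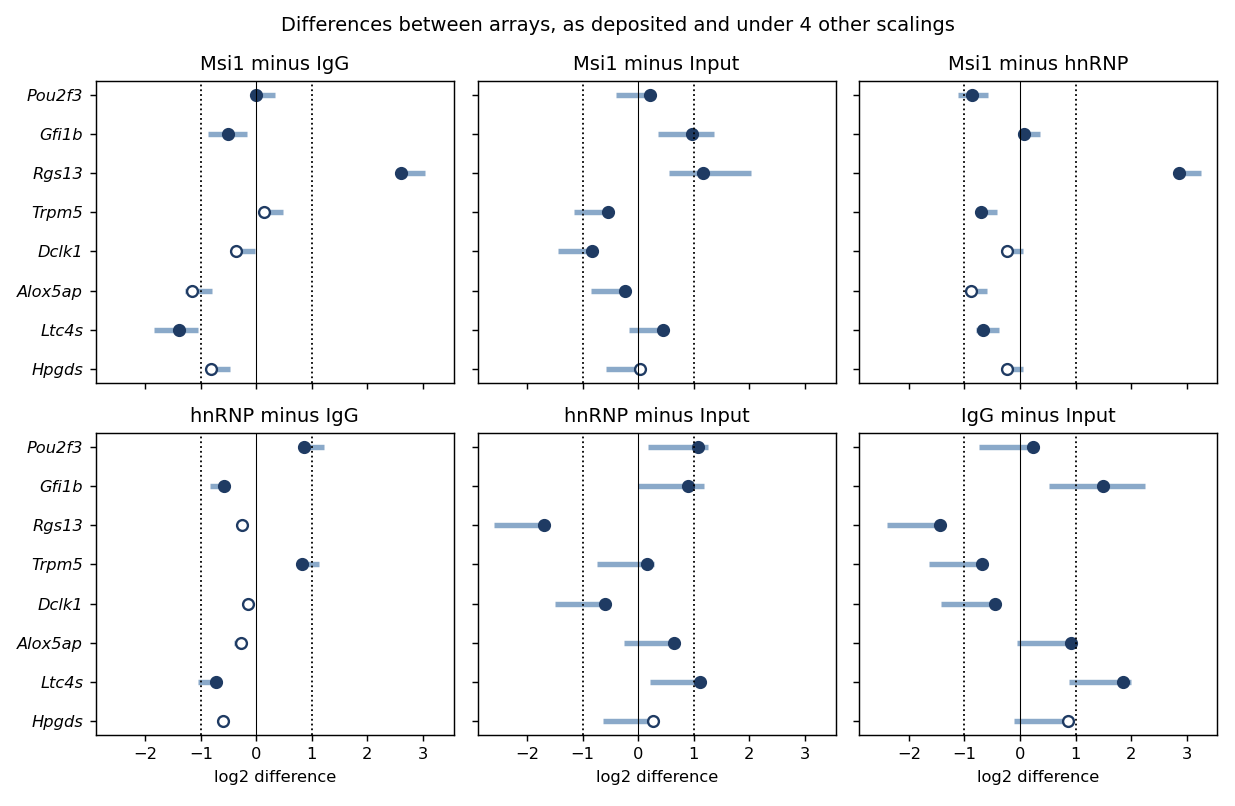
Log2 difference of each tuft cell gene in the 6 comparisons of arrays; points are deposited values, filled where either array exceeded its floor, and pale bars span the deposited values and 4 other scalings (median, quantile, loess and receptor median). Rgs13 stays right of the 2-fold line in Msi1 minus IgG and in Msi1 minus hnRNP, while the bars of most comparisons with input are long enough to cross a dotted line or 0.

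For the 5 members above the floor on at least 2 arrays, the genes with the most similar 4 values were sought. Likeness was measured by Euclidean distance in log2 units among 12670 other genes above the floor on any array. Olfactory and vomeronasal receptors, predicted genes, clones, microRNAs and small nucleolar RNAs were left out, so genes nearer than those named may exist among them. Nearest to Rgs13 were Rab18, a small GTPase gene, at 0.25, Acbd5, a peroxisomal membrane protein gene, at 0.30, and Anapc10, a subunit gene of the anaphase-promoting complex, at 0.52. Rab18 read 5.44 on input, 3.80 on IgG, 6.61 on Msi1 and 3.52 on hnRNP. Nearest to Ltc4s were the lens crystallin gene Crygf (0.11), Dytn (0.18) and the synaptic scaffold gene Bsn (0.20). Nearest to Gfi1b were Fthl17a (0.16), Ccsap (0.16) and Prdm11 (0.25), to Pou2f3 Top1mt (0.14), Ccdc51 (0.19) and Sash3 (0.24), and to Trpm5 Tctn1 (0.18), Cep78 (0.23) and Klhl11 (0.26). Likeness over 4 arrays is a description, since many genes near the floor share such values.

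Of 37 further tuft cell markers found, 21 were above the floor in Msi1 or IgG, 4 passed 2-fold upward in Msi1 (18.6% of all genes) and 1 downward (6.91%), with a median of −0.06 against 0.06. These shares are near those of all genes. Cd24a, a surface sialoglycoprotein gene that other epithelial cells also express, read 9.20 on input, 4.04 on IgG, 8.16 on Msi1 and 4.62 on hnRNP, an excess over IgG of at least 7.45-fold. Il13ra1, a subunit of the interleukin 13 receptor, read 9.14, 4.85, 7.96 and 5.15 in that order, at least 6.47-fold over IgG. Atoh1, the secretory lineage factor, exceeded IgG by 1.27 (at least 2.05-fold) and Ccdc28b by 1.07 (at least 1.05-fold). Hmx2, a homeobox gene, was 2.89-fold lower (−1.53), and Avil, the actin-binding protein advillin, differed by −0.99. Gnat3, the taste G protein subunit, and 6 more of these markers were below every floor.

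In the taste cascade, 5 of 16 genes could be compared in Msi1 against IgG, with a median of 0.22. Gnb1, a broadly expressed G protein beta subunit, was 2.55-fold higher, the only 1 of the 5 to pass 2-fold upward (18.6% of all genes), and 0 passed it downward (6.91%). Gng13, the gamma subunit of the taste G protein, differed by −0.79, the inositol trisphosphate receptor Itpr3 by −0.41 and the taste receptor subunit Tas1r3 by 0.38. Among 20 Rgs family genes found, 6 could be compared and 2 were higher, Rgs13 and Rgs2 (1.01, at least 1.05-fold), against 18.6% of all genes, with 0 lower, against 6.91%. Without the member Rgs13, 1 of 5 was higher and 0 were lower. Rgs3 and Rgs19 differed by −0.93 and −0.77.

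Of the wider eicosanoid pathway, 37 genes were found and 21 compared in Msi1 against IgG, with a median of 0.20. Of these, 4 passed 2-fold upward, against 18.6% of all genes, and 3 downward, against 6.91%, Ltc4s among the latter. Without the member Ltc4s, 4 of 20 passed it upward and 2 downward. Ptges3, a prostaglandin E synthase that also serves as the Hsp90 cochaperone p23, read 7.85 on input, 4.75 on IgG, 8.66 on Msi1 and 4.50 on hnRNP, at least 10.5-fold over IgG. The microsomal glutathione transferase gene Mgst1 exceeded IgG by 3.05 (at least 3.98-fold), the prostaglandin-degrading enzyme gene Hpgd by 2.24 (at least 1.45-fold) and the prostaglandin E receptor gene Ptger4 by 1.10 (at least 1.12-fold). The thromboxane receptor gene Tbxa2r lay lower by at least 2.40-fold (−1.26) and the inducible cyclooxygenase gene Ptgs2 at least 1.53-fold lower (−1.12). Alox5, the lipoxygenase that works with Alox5ap, was below every floor, as were both cysteinyl leukotriene receptor genes, Cysltr1 and Cysltr2.

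**Figure D4:**
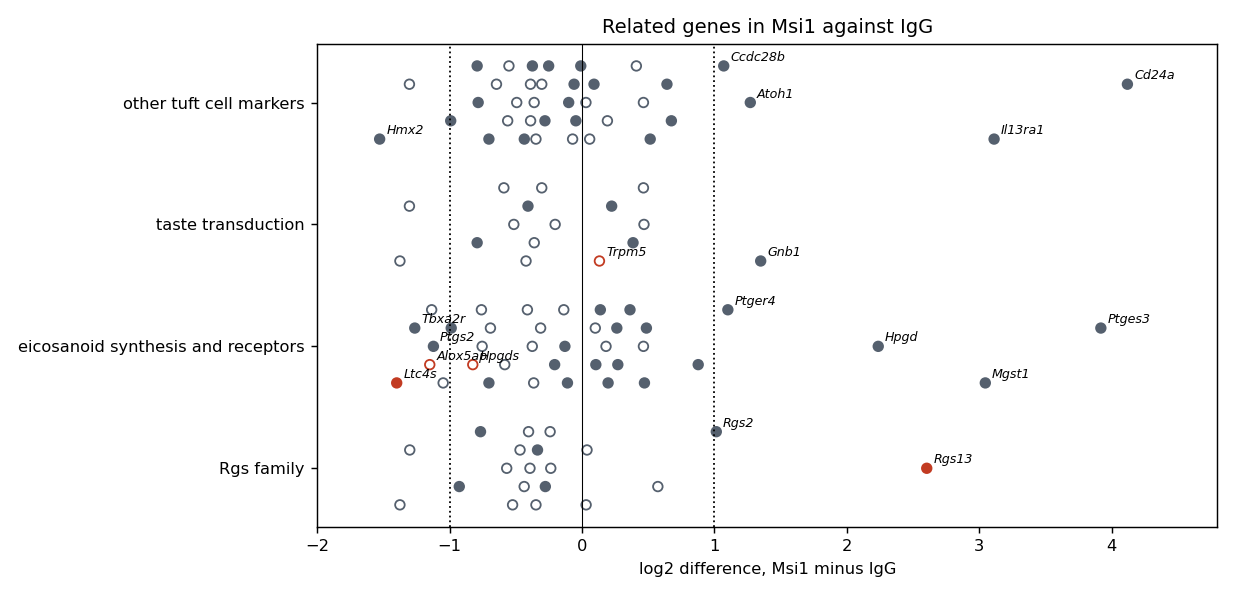
Log2 difference of Msi1 minus IgG for genes of 4 related lists, with dotted lines at 2-fold. Points are genes, spread vertically for legibility, and are filled where the gene exceeded the floor on the Msi1 or the IgG array. Red marks the members that these lists hold (Rgs13, Ltc4s, Trpm5, Alox5ap and Hpgds), and grey marks other genes. Ptges3, Cd24a and Il13ra1 lie furthest right with Mgst1 and Rgs13, and Hmx2 and Ltc4s furthest left among filled points.

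Several members are also expressed outside the epithelium, so markers of other cells were read on the same arrays, and their part in the results was not tested. Mast cells express Rgs13, Hpgds and Ltc4s. Of 9 mast cell markers, 3 exceeded the floor on input (Kit, Mcpt2 and Gata2), 0 on IgG, 2 on Msi1 and 1 on hnRNP, and the other 6 (Cpa3, Fcer1a, Ms4a2, Mcpt1, Mcpt4 and Tpsb2) were below every floor. Summed on the linear scale, the signals of all 9 were 151 on input, 166 on IgG, 176 on Msi1 and 207 on hnRNP. Input was also lowest in array background, with receptor medians of 2.93 on input, 3.89 on IgG, 3.54 on Msi1 and 3.83 on hnRNP. The part of background in this and the following sums was not tested. Germinal centre B cells express Rgs13. Of 5 B cell markers found, 1 exceeded the floor on input and 1 on Msi1, 2 on IgG and 3 on hnRNP, with sums of 60.6, 99.9, 164 and 180. Cd79a was below the Msi1 floor (3.11) and above the IgG floor (5.88). Pax5 exceeded the floors of Msi1 (5.70), IgG (5.60) and hnRNP (5.97) but not that of input (3.88). Its Msi1 and IgG values differed by 0.10. Ms4a1 and Cr2 were below every floor. Of 6 myeloid markers, 4 exceeded the floor on input, 1 on IgG, 2 on Msi1 and 0 on hnRNP, with sums of 454, 144, 112 and 138, most of it on input from Lyz2 (8.49). Of 4 megakaryocyte and erythroid markers, which bear on Gfi1b, 1 exceeded the floor on each array, and Pf4 and Gata1 on none. Stromal markers bear on Dclk1, and 3 of 7 exceeded the floor on input, 4 on IgG, 5 on Msi1 and 4 on hnRNP. Neuron and glia markers also bear on Dclk1, and 0 of 4 did so on input, IgG and hnRNP and 1 on Msi1, Uchl1. Of 4 T cell markers, 3 exceeded the floor on input and 1 on each other array. On input Cd3e read 6.36, Cd3g 6.36, Cd2 4.12 and Cd3d 3.10, where the highest member, Rgs13, read 5.28.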

How the data were processed

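The deposited values are log2 signals, 1 per probe set and array, from Affymetrix Mouse Gene 1.0 ST arrays of random-primed RNA (100 ng labelled), per the labels' protocols. The submitters' processing notes name affy, with no version; how background was corrected and arrays normalized is not stated there. The log base was read as 2 because values ran from 1.07 to 14.3. The arrays' standard deviations ran from 1.17 to 2.01, so they were not quantile normalized at this level.

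Of 34760 probe sets, 21640 had 1 symbol in GEO's platform annotation, 1321 several and 11799 none here. Symbols were updated through Entrez identifiers to RefSeq (21553 matched). Where a gene had several probe sets (954 genes), the brightest on average was used; each member had 1. Differences were taken between arrays for genes exceeding the floor of either, and called at 2-fold. A fold whose dimmer value fell under the floor is a lower bound. Named are all members, the 3 nearest genes of each of the 5 members above the floor on at least 2 arrays, and the 2 highest and 2 lowest of each related list. Other listed genes past 2-fold, and the cell markers given as examples, were named after their values were seen. The members and lists were chosen with earlier results of these data known. Python 3.11.15, pandas 2.3.3, numpy 2.4.6, statsmodels 0.14.6 and matplotlib 3.10.9 were used.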

Additional observations from a re-analysis of the deposited data

How the results depend on the processing

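With 1 array a group, no replicate could be left out, and no paired analysis was possible because each group has 1 array. Each member had 1 probe set, so the choice of probe set changed no member's value. The median of all genes in Msi1 against IgG was 0.06 as deposited, 0.20 with median centring, 0.16 with loess centring and 0.41 with receptor centring, a scaling added after the data were seen. Counts of members moved by over 1.5 times as follows, and the cause was not tested unless the setting itself is a threshold or a detection rule. In Msi1 against IgG (1 higher, 1 lower), there were 2 lower of 8 with no floor (8.25% of all genes). With detection on both arrays there were 0 higher (7.87%) and 0 lower (5.33%), with 1 member compared. At 3-fold there were 0 lower of 4 (1.12%). In Msi1 against input (1 and 0), 7 members were compared at each of these settings. There were 0 higher (6.91% of all genes) and 1 lower (44.8%) with median centring, and 2 higher (12.3%) after quantile normalization. After loess centring there were 2 higher (15.2%) and 1 lower (21.9%), and at 1.5-fold 2 (20.3%) and 1 (49.4%). There were 0 higher at 3-fold (2.86%), and 0 higher (2.58%) and 2 lower (55.1%) with receptor centring. In Msi1 against hnRNP (1 and 0), there was 1 lower of 5 with quantile normalization (15.8% of all genes). There were 0 higher of 2 with detection on both arrays (6.91%), and 3 lower of 5 at 1.5-fold (22.6%). In hnRNP against IgG (0 and 0), with 4 members compared, there were 2 higher (12.8% of all genes) and 1 lower (10.6%) with quantile normalization. At 1.5-fold there were 2 higher (18.5%) and 2 lower (14.2%). For hnRNP and IgG against input, the shares over all genes at each setting are not given here. Their shifts in count are therefore not read as results about the members. In hnRNP against input (2 and 1), there were 0 higher with median centring, 2 lower with loess centring, 0 higher with the floor at the 99th percentile, 0 lower with detection on both arrays or values raised to the floor, 4 higher and 2 lower at 1.5-fold, 0 higher at 3-fold, and 0 and 2 with receptor centring. The 2 higher members with quantile normalization and with loess centring were Pou2f3 and Gfi1b, in place of Pou2f3 and Ltc4s. In IgG against input (2 and 1), there were 2 lower with median centring, loess centring or 1.5-fold, 0 lower with detection on both arrays or values raised to the floor, 1 higher and 0 lower at 3-fold, and 0 and 3 with receptor centring. No difference of a single member that was called as deposited changed sign under any scaling run. The Gfi1b difference in hnRNP against input, not called as deposited, ran from −0.005 to 1.19 over the scalings.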
